A study of Mus musculus with 8 samples.

Results

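The family of Toll-like receptors (TLRs) was represented by 10 of the 25124 genes in the table of expression values, taken by symbol as Tlr1, Tlr2, Tlr3, Tlr4, Tlr5, Tlr6, Tlr7, Tlr8, Tlr9 and Tlr13. RNA was sequenced from mouse osteoclast precursor (OCP) cells, which are adherent bone marrow macrophages grown with M-CSF, the growth factor of macrophages. Precursors came from C57BL/6 mice of 6 to 8 weeks according to the sample labels, whereas the culture methods of the study name male ICR mice of 6 weeks. Marrow cells were first kept in 5 ng/mL M-CSF for 16 h. The nonadherent ones were then grown with M-CSF for 3 days before the treatments. All cultures received 30 ng/mL M-CSF, and the 4 groups were no PRDX1 + no RANKL, PRDX1 + no RANKL (200 nM PRDX1), no PRDX1 + RANKL (100 ng/mL RANKL) and PRDX1 + RANKL (both), each with 2 cultures analysed after 48 h. RANKL is the cytokine that drives precursors to become osteoclasts. PRDX1 is peroxiredoxin 1, an antioxidant enzyme that was added here from outside the cells as a His-tagged recombinant protein, made in bacteria and passed over a resin that removes endotoxin. No source used here says whether the 2 cultures of a group came from separate mice, so p-values measure the spread between cultures, which may be technical.

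TLRs are membrane proteins of macrophages and other cells that recognise molecules of microbes and of damaged cells. Tlr1, Tlr2, Tlr4, Tlr5 and Tlr6 act mainly at the cell surface, where TLR2 pairs with TLR1 or TLR6 to bind lipopeptides, TLR4 binds bacterial lipopolysaccharide and TLR5 binds flagellin. Tlr3, Tlr7, Tlr8, Tlr9 and Tlr13 act in endosomes and recognise nucleic acids, TLR3 double-stranded RNA, TLR7 and TLR8 single-stranded RNA, TLR9 DNA with CpG motifs and TLR13 bacterial ribosomal RNA. The receptors signal through the adaptors MyD88 and TRIF to NF-κB and interferon regulatory factors. In bone, ligands of TLRs are known to block the early steps by which precursors become osteoclasts. The study asked about PRDX1 acting through TLR4.

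The values were FPKM, read counts divided by transcript length and by library size, so that genes can be compared with each other. Library totals recovered from these values were between 27284690 and 46171810 reads. Defining markers of macrophages (Csf1r, Adgre1, Cd68, Itgam, Mertk and Lyz2) were present in all 8 libraries, and the list of 6 summed to 16900 and 15150 FPKM in the control (no PRDX1 + no RANKL), 15980 and 16440 FPKM with PRDX1 alone, 10120 and 9702 FPKM with RANKL alone and 13440 and 13050 FPKM with both. Lyz2 made up most of this sum, with 14982 and 13253 FPKM in the control, while Adgre1 had 385 and 358 FPKM in the control, 484 and 527 FPKM with PRDX1 alone, 235 and 220 FPKM with RANKL alone and 405 and 402 FPKM with both. Csf1r, the receptor of M-CSF, had 503 and 514 FPKM in the control, 481 and 501 FPKM with PRDX1 alone, 241 and 290.3 FPKM with RANKL alone and 301 and 317 FPKM with both. Mertk had 20.8 and 22.5 FPKM, 27.1 and 28.4 FPKM, 4.22 and 4.89 FPKM, and 10.8 and 11.4 FPKM in the same order, so that these markers did not all stand alike to the control with both treatments. The 6 markers of mature osteoclasts summed to 24.8 and 23.9 FPKM in the control, 55.1 and 55.3 with PRDX1 alone, 1581 and 1699 with RANKL alone and 198.5 and 208 with both, and Calcr was at 0 in the 4 libraries without RANKL. Without RANKL nearly all of this sum was Acp5, at 24.2 and 23.1 FPKM in the control and 53.9 and 53.5 FPKM with PRDX1 alone. Lists of B cell, T cell, neutrophil and conventional dendritic cell markers summed to at most 3.78 FPKM in any library, with Cd3e at 0 in all, and stromal markers to at most 9.17 FPKM. At these low levels the sums were higher with PRDX1 alone than in the control, at 2.98 and 3.47 against 1.35 and 0.793 FPKM for neutrophils, 1.76 and 1.68 against 0.588 and 0.570 FPKM for conventional dendritic cells and 7.55 and 7.98 against 3.94 and 5.07 FPKM for stromal cells. With both treatments they were also higher than with RANKL alone. In the same order they had 2.39 and 3.33 against 0.949 and 1.02 FPKM, 2.88 and 3.78 against 1.45 and 1.49 FPKM, and 6.945 and 9.17 against 3.64 and 4.75 FPKM. Markers of plasmacytoid dendritic cells, which use TLR7 and TLR9, summed to 1.46 and 1.55 FPKM in the control, 4.17 and 4.57 with PRDX1 alone, 1.95 and 2.44 with RANKL alone and 4.76 and 5.24 with both. In such bulk RNA, fewer cells of a type and less RNA per cell cannot be told apart. The part of these other cells in the results was not tested.

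All 10 receptors passed the filter of a mean FPKM of at least 0.5, which 11700 genes passed. In precursors with neither treatment Tlr13 was the most abundant receptor, at 198 and 177 FPKM in the 2 libraries (187 ± 15.1, SD, n = 2). It was followed by Tlr7 at 82.2 and 81.3 FPKM and by Tlr8 at 63.0 and 58.0 FPKM. These 3 endosomal receptors for single-stranded or ribosomal RNA stood above every surface receptor. Tlr2 had 43.5 and 39.6 FPKM, Tlr4 24.4 and 23.2 FPKM, Tlr1 19.2 and 17.2 FPKM, and Tlr6 11.6 and 10.1 FPKM. Tlr3 had 8.76 and 10.5 FPKM, so that Tlr6 and Tlr3 were the only neighbours in this order whose libraries overlapped. Tlr5 at 2.33 and 2.33 FPKM and Tlr9 at 1.28 and 1.17 FPKM came last, on 220 and 311 reads and on 131 and 170 reads. Neither of the other mouse receptors in the table, Tlr11 and Tlr12, exceeded 6 reads in any library, and they were not tested.

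**Figure D1:**
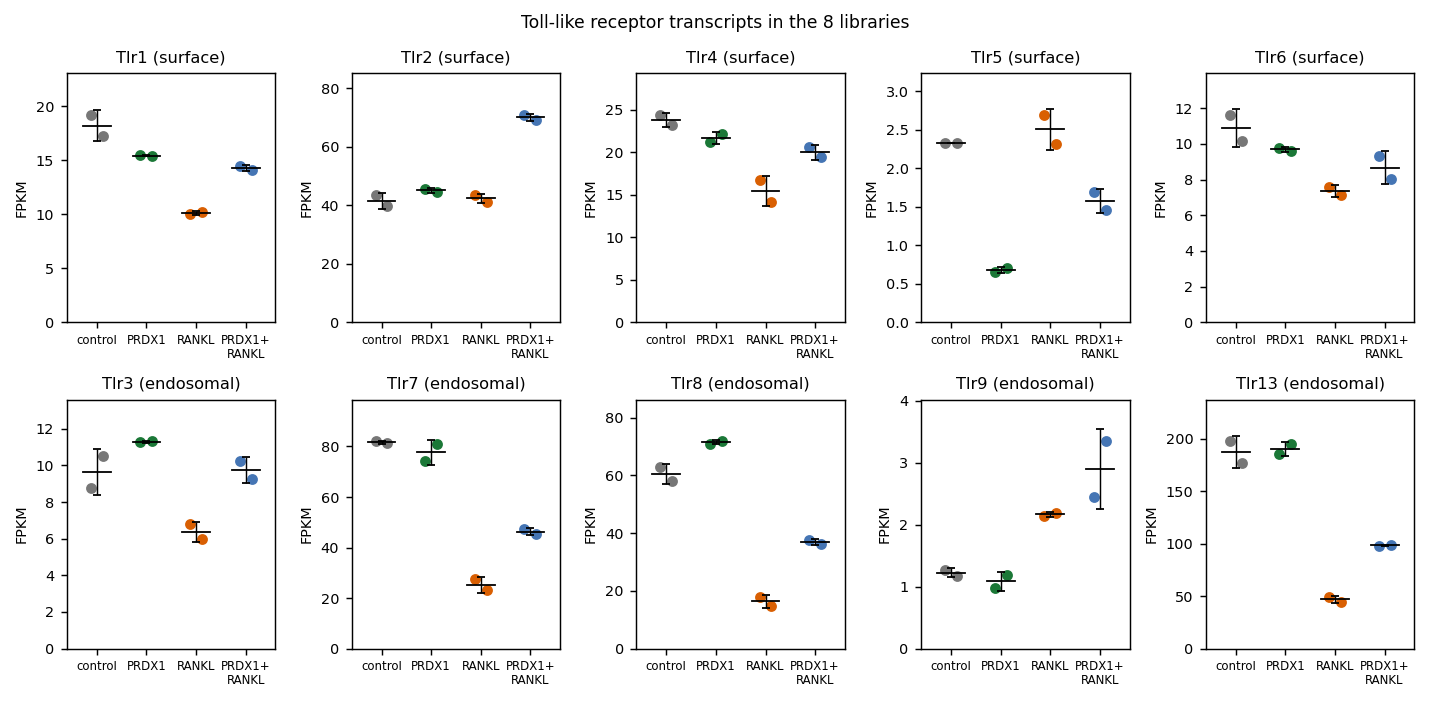
FPKM of the 10 receptors in the 8 libraries, each panel with its own linear axis from 0; points are libraries, lines are group means and bars are the SD of the 2 libraries of a group. Tlr7, Tlr8 and Tlr13 drop with RANKL alone and lie in between with both treatments, Tlr2 is highest with both (70.9 and 69.2 FPKM), and Tlr5 is lowest with PRDX1 alone (0.649 and 0.710 FPKM).

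To see how the receptors changed on the way to osteoclasts, RANKL alone was compared with no treatment. A gene was called higher or lower when its Benjamini-Hochberg adjusted p-value in limma was under 0.05 and its fold change at least 1.5 (a log2 fold change of 0.58), on the scale of log2(FPKM + 1). RANKL lowered 5 of the 10 receptors, where 21.8% of all genes tested were called, 9.96% as lower and 11.8% as higher. The balance over all genes turned with the scaling, from 1383 higher and 1165 lower to 1088 and 1322 under quantile normalization and 1153 and 1302 with upper quartile scaling. The 3 most abundant receptors fell most. Tlr13, the sensor of bacterial ribosomal RNA, went from 198 and 177 FPKM to 49.6 and 44.8 FPKM. Every library with RANKL alone was thus far below every control library, at 25.2% of the control mean, with a log2 fold change of -1.97 (SE, the standard error, 0.07, adjusted p = 4.32e-09). Tlr8 had 18.03 and 14.8 FPKM with RANKL alone, 27.1% of its control mean. Its log2 fold change was -1.82 (SE 0.08, adjusted p = 3.50e-08). Tlr7 had 27.5 and 23.1 FPKM, 31.0% of its control mean, a log2 fold change of -1.66 (SE 0.08, adjusted p = 4.91e-08). The macrophage marker list had a median log2 fold change of -0.71 in the same comparison, with 4 of its 6 genes called lower, and its part in the result was not tested.

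The other endosomal receptors, Tlr3 and Tlr9, were not called. Tlr3 had 6.78 and 6.00 FPKM with RANKL alone, below both control libraries, a ratio of 0.662 in FPKM. Its log2 fold change of -0.52 (adjusted p = 8.10e-04) stayed under 1.5-fold. Without control replicate 1 or without RANKL replicate 1 it passed, at -0.64 and -0.60, and it also passed on the reads recovered from FPKM, at -0.61. GENCODE places the antisense gene Gm45542 over Tlr3, and since reads of both strands were counted, the part of such reads in the Tlr3 value cannot be told apart. Tlr9 had higher values with RANKL alone, 2.14 and 2.20 FPKM against 1.28 and 1.17 FPKM, a log2 fold change of 0.51 (adjusted p = 0.00473). This is a ratio of 1.77 in FPKM, which the added 1 shrinks for a gene of such low level. Tlr9 passed the thresholds with an added 0.1 instead, at 0.78, and on recovered reads, at 0.83.

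Among the surface receptors, RANKL lowered Tlr1 and Tlr4. Tlr1 had 9.99 and 10.3 FPKM with RANKL alone against 19.2 and 17.2 FPKM, a log2 fold change of -0.79 (SE 0.07, adjusted p = 3.86e-06). Tlr4 had 16.7 and 14.2 FPKM against 24.4 and 23.2 FPKM, 64.9% of the control mean. Its log2 fold change of -0.60 (SE 0.08, adjusted p = 9.05e-05) lay just past the 1.5-fold threshold, and it was -0.56 without control replicate 1 and -0.48 without RANKL replicate 2, both short of it. Tlr6 had 7.59 and 7.14 FPKM against 11.6 and 10.1 FPKM, a log2 fold change of -0.51 (adjusted p = 6.91e-04) that did not reach 1.5-fold, except without control replicate 2, at -0.60. The transcripts of Tlr1 and Tlr6 in GENCODE have 259 stretches of 100 bases in common, the read length of the study, which is 8.57% of those of Tlr1 and 7.09% of those of Tlr6, so part of their reads may be shared. No other pair of members had a stretch of this length in common. Tlr2 and Tlr5 did not pass, and in both genes the libraries of the groups overlapped. Tlr2 had 43.4 and 41.2 FPKM with RANKL alone, a log2 fold change of 0.03 (95% interval -0.10 to 0.16) whose sign turned under quantile normalization (-0.06) and upper quartile scaling (-0.04). Tlr5 had 2.70 and 2.32 FPKM, a log2 fold change of 0.07 (95% interval -0.15 to 0.30).

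Cultures given PRDX1 together with RANKL were compared with RANKL alone, and 9 of the 10 receptors had log2 fold changes above 0, where 4848 of all 11700 genes tested did. In the presence of RANKL, PRDX1 raised 4 of the 10, where 10.2% of all genes tested were called, 6.03% as higher and 4.17% as lower. This comparison shares the libraries of RANKL alone with that of RANKL against no treatment, so the values of both are set side by side and are not separate evidence. The 4 were Tlr13, Tlr8, Tlr7 and Tlr2. Tlr13 had 98.2 and 98.6 FPKM with both against 49.6 and 44.8 FPKM with RANKL alone, a log2 fold change of 1.05 (SE 0.07, adjusted p = 1.25e-06). Tlr8 had 37.6 and 36.1 FPKM with both, a log2 fold change of 1.12 (SE 0.08, adjusted p = 3.24e-06), and Tlr7 had 47.3 and 45.2 FPKM, a log2 fold change of 0.85 (SE 0.08, adjusted p = 1.60e-05). All 3 remained below their control libraries, at 52.6%, 60.9% and 56.6% of the control means. In the same comparison the 6 macrophage markers had a median log2 fold change of 0.39 with 2 genes called higher, and the 5 osteoclast markers tested had a median of -3.05. The part of these shifts in the result was not tested.

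**Figure D2:**
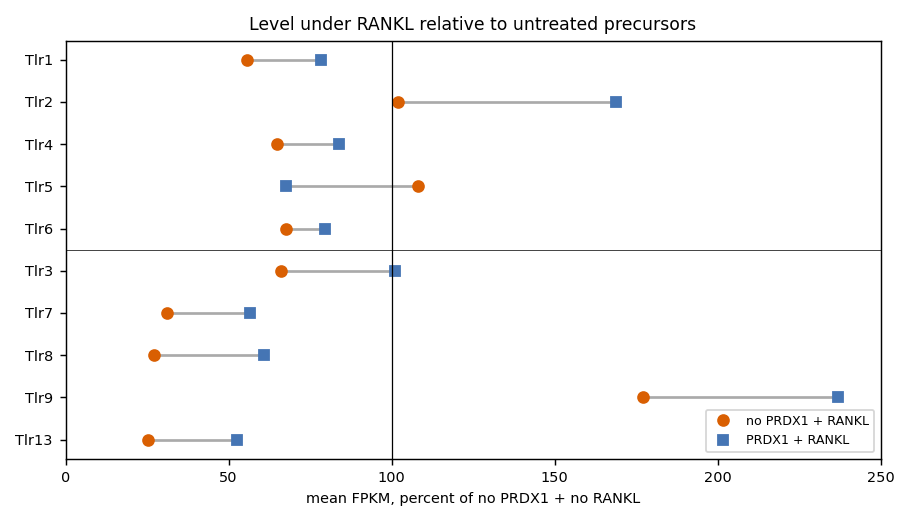
Mean FPKM of each receptor with RANKL alone (circles) and with PRDX1 + RANKL (squares) as a percentage of its mean with neither treatment, joined by a grey line; the black vertical line marks 100%. Tlr13, Tlr8 and Tlr7 sit at 25.2% to 31.0% with RANKL alone and at 52.6% to 60.9% with both, whereas Tlr2 and Tlr9 lie at 169% and 237% with both.

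Tlr2, the receptor of lipopeptides, was the surface receptor among the 4 that PRDX1 raised under RANKL, and it was not among those lowered by RANKL alone. It had 43.5 and 39.6 FPKM in the control, 45.6 and 44.5 FPKM with PRDX1 alone, 43.4 and 41.2 FPKM with RANKL alone and 70.9 and 69.2 FPKM with both. The libraries with both treatments lay above all 6 others, which covered only 39.6 to 45.6 FPKM. With RANKL present the log2 fold change by PRDX1 was 0.71 (SE 0.06, adjusted p = 6.58e-06), and without RANKL it was 0.12 (95% interval -0.01 to 0.24, adjusted p = 0.163). On the promoter side, the sequence of Tlr2 is shown together with those of Tlr8 and Tlr13, which fell with RANKL, as the 250 bases before the start of the transcript used in the table (RefSeq, GRCm38.p6, the assembly also called mm10, 5′ to 3′ on the strand of the gene). Capitals mark matches to the NF-κB consensus or to GAGGAA, the core bound by the macrophage factor PU.1.
Tlr2 (chr3:83841609-83841858, minus strand): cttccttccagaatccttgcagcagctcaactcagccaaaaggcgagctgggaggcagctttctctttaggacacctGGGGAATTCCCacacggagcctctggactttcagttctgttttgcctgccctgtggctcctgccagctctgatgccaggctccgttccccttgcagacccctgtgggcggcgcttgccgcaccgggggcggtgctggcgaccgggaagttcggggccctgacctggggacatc
Tlr8 (chrX:167264330-167264579, minus strand): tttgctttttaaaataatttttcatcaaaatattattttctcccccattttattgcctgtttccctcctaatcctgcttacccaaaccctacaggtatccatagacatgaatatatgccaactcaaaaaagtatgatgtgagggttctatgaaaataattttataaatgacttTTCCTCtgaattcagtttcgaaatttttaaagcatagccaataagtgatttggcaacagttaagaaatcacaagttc
Tlr13 (chrX:106143025-106143274, plus strand): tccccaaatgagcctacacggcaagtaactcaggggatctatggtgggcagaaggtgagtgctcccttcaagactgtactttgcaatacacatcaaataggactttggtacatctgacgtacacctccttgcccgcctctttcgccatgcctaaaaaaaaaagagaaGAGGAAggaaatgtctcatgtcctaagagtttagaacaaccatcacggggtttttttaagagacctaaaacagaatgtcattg

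In Tlr2 the capitals cover 2 overlapping matches to the NF-κB consensus, from 173 to 163 bases before the start. Of the 32851 promoters searched in the same window, on both strands, 3.90% held this consensus, and Tlr3 was the other member that did. With RANKL alone Tlr3 was at 66.2% of its control mean. The PU.1 core GAGGAA, searched on both strands and so also read as its reverse complement in Tlr8, stood 83 to 78 bases before the start in Tlr13 and 77 to 72 bases before it in Tlr8. It was also found in Tlr9, which was at 177% of its control mean with RANKL alone, and 23.3% of all promoters held this core. The core of the interferon-stimulated response element (2.98% of promoters) was found in no member searched, the AP-1 site TGANTCA (6.75%) in Tlr9 and the E-box CACGTG (6.02%) in Tlr1. A match describes letters only. Promoters of 8 members were searched, and Tlr4 and Tlr7 were not.

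The remaining receptors did not reach 1.5-fold between RANKL alone and both treatments on the scale of log2(FPKM + 1). Tlr1 had 14.5 and 14.1 FPKM with both against 9.99 and 10.3 FPKM, a log2 fold change of 0.46 (adjusted p = 3.78e-04). Tlr4 had 20.6 and 19.4 FPKM against 16.7 and 14.2 FPKM, a log2 fold change of 0.36 (SE 0.08, adjusted p = 0.00452), so that both libraries with PRDX1 lay above both without it. Tlr3 had 10.2 and 9.23 FPKM against 6.78 and 6.00 FPKM, a ratio of 1.52 in FPKM. Its log2 fold change of 0.54 (adjusted p = 0.00118) passed with an added 0.1 (0.60), on recovered reads (0.62), without RANKL replicate 1 (0.61) and without PRDX1 + RANKL replicate 2 (0.61). Tlr6 had a log2 fold change of 0.21 (adjusted p = 0.0881) and Tlr9 one of 0.29 (adjusted p = 0.0819). For Tlr6 the adjusted p-value was 0.0393 with a term for the replicate number, but 0.0648 under quantile normalization. Both fold changes depended on the library, since Tlr6 had 0.11 without PRDX1 + RANKL replicate 1 and 0.30 without replicate 2, and Tlr9 had 0.46 and 0.12. Tlr5 was the only member below 0, with 1.69 and 1.46 FPKM against 2.70 and 2.32 FPKM. Its log2 fold change was -0.44 (adjusted p = 0.00513), a ratio of 0.629 in FPKM, and it passed with an added 0.1 (-0.64) and on recovered reads (-0.65).

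**Figure D3:**
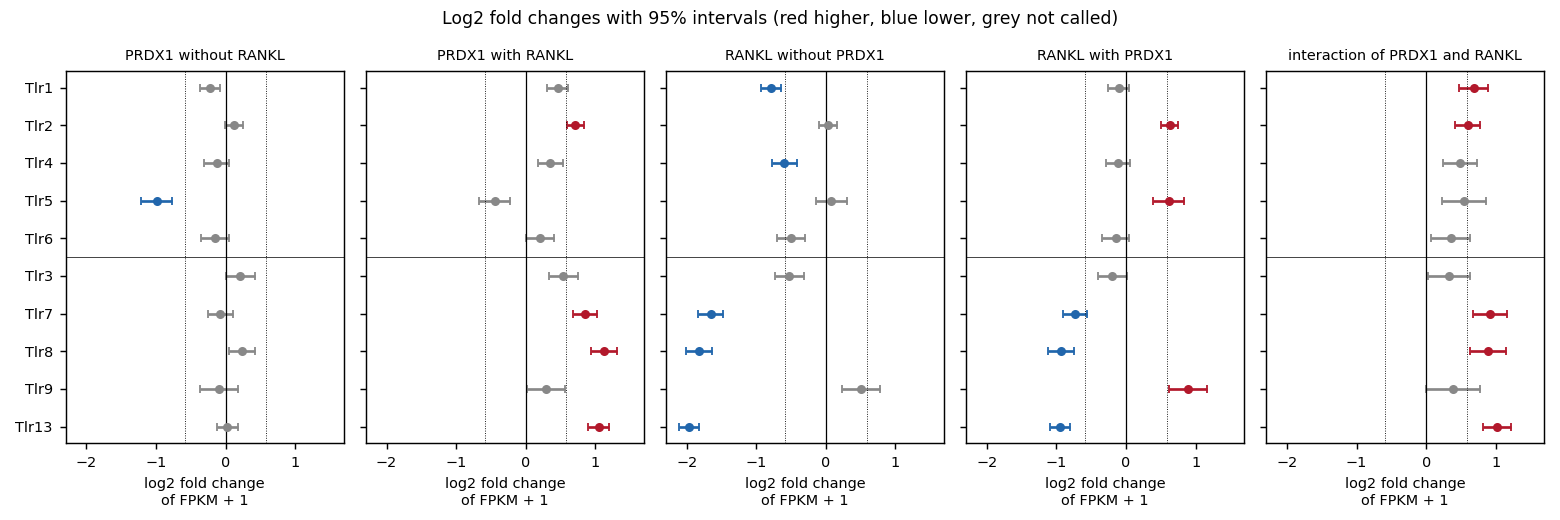
Log2 fold changes of FPKM + 1 with 95% intervals for the 10 receptors (surface above the horizontal line, endosomal below) in the 4 comparisons and for the interaction; dotted lines mark 1.5-fold, red is called higher, blue lower and grey not called. Without RANKL only Tlr5 is called (-0.99), with RANKL alone 5 receptors are lower, and all 10 interaction values lie above 0, where 5644 of all 11700 genes tested do.

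In cells that were not given RANKL, the effect of adding PRDX1 was described for transcripts of its proposed receptor, TLR4, and of the rest of the family. Receptor protein was not measured in these data. PRDX1 lowered 1 of the 10 receptors, where 5.79% of all genes tested were called, 1.99% as lower and 3.8% as higher. That receptor was Tlr5, the sensor of flagellin. It had 2.33 and 2.33 FPKM in the control and 0.649 and 0.710 FPKM with PRDX1 alone, on 220 and 311 and on 65 and 80 reads. The groups did not overlap, and the log2 fold change was -0.99 (SE 0.10, adjusted p = 6.51e-05), a ratio of 0.292 in FPKM. With an added 0.1 it was -1.64 and on recovered reads -1.77. Tlr4 had 24.4 and 23.2 FPKM without and 21.2 and 22.1 FPKM with PRDX1. Its log2 fold change of -0.13 (95% interval -0.30 to 0.04, adjusted p = 0.250) did not pass, although both PRDX1 libraries were the lower ones. Tlr1 had 15.5 and 15.4 FPKM with PRDX1 alone (log2 fold change -0.22, adjusted p = 0.0303), which stayed under 1.5-fold. Its adjusted p was 0.0591 under quantile normalization, 0.0696 with upper quartile scaling and 0.212 without control replicate 1, where the log2 fold change was -0.15, and it was 0.107 or 0.120 without either PRDX1 library. The other 7 receptors had log2 fold changes from -0.15 (Tlr6) to 0.24 (Tlr8), with adjusted p-values from 0.0526 (Tlr8) to 0.804 (Tlr13). That of Tlr8 lay on either side of 0.05, for instance 0.0466 under quantile normalization, 0.0344 with upper quartile scaling, 0.0272 with the replicate block, 0.0154 with only the groups compared and 0.00363 on recovered reads, but 0.134 with no filter and 0.249 without control replicate 2. Without control replicate 1 or 2 in turn, Tlr3 (0.21) had 0.09 and 0.33, Tlr2 (0.12) 0.18 and 0.05, and Tlr6 (-0.15) -0.06 and -0.24. Without PRDX1 replicate 1 or 2 in turn, Tlr7 (-0.07) had -0.01 and -0.14 and Tlr9 (-0.10) -0.02 and -0.17. The median of the 5 endosomal receptors was 0.03 and that of the 5 surface receptors -0.15, beside -0.04 over all genes tested.

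RANKL was also compared with no RANKL among cultures that all had PRDX1. Here 3 receptors were lower and 3 higher, where 8.5% of all genes tested were called, 3.98% as lower and 4.52% as higher. This balance also turned, from 529 higher and 466 lower to 457 and 563 under quantile normalization and 466 and 542 with upper quartile scaling. In the same comparison the 6 macrophage markers had a median log2 fold change of -0.31 with 2 called lower, and the 5 osteoclast markers tested one of 2.0 with 4 called higher, and their part in the result was not tested. Tlr13 (log2 fold change -0.95, adjusted p = 3.20e-06), Tlr8 (-0.94, adjusted p = 1.52e-05) and Tlr7 (-0.74, adjusted p = 5.54e-05) were again the lower ones, at 51.7%, 51.6% and 59.5% of their means with PRDX1 alone. Tlr9, the CpG DNA sensor, rose from 0.975 and 1.19 FPKM with PRDX1 alone to 2.44 and 3.35 FPKM with both. Its log2 fold change was 0.90 (SE 0.12, adjusted p = 3.04e-04), and its libraries differed most among themselves with both treatments. On recovered reads it was 1.39. Tlr2 rose by 0.63 (adjusted p = 2.17e-05), which upper quartile scaling moved to 0.57 and under 1.5-fold. Tlr5 rose from 0.649 and 0.710 FPKM to 1.69 and 1.46 FPKM, a log2 fold change of 0.62 (adjusted p = 8.95e-04) that was 0.55 without PRDX1 + RANKL replicate 1. It was 1.10 with an added 0.1 and 1.21 on recovered reads, and the ratio in FPKM was 2.32. Tlr1 (-0.11), Tlr3 (-0.20), Tlr4 (-0.11) and Tlr6 (-0.15) did not pass, with adjusted p-values from 0.122 to 0.285. That of Tlr3 was 0.0487 under quantile normalization, 0.046 with only the groups compared and 0.0359 on recovered reads, but 0.136 with the replicate block. Its fold change stayed under 1.5-fold in these settings. Under quantile normalization Tlr1 and Tlr4 both had -0.19. Without PRDX1 + RANKL replicate 2 Tlr3 had -0.13, Tlr4 -0.07 and Tlr6 -0.05, and without replicate 1 Tlr6 had -0.25.

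Whether PRDX1 acted differently with and without RANKL was tested as an interaction, the log2 fold change by PRDX1 with RANKL minus that without RANKL. It was called for 5 of the 10 receptors, all with a more positive effect of PRDX1 under RANKL, where 8.85% of all genes tested were called, 4.5% in this direction and 4.35% in the other. By adjusted p-value alone 7 of the 10 passed, where 23.1% of all genes tested did. The 5 osteoclast markers tested had a median interaction of -3.91 with 5 called lower, and the 6 macrophage markers one of 0.34 with 1 called higher, and their part in the result was not tested. The largest was Tlr13, with 1.05 under RANKL against 0.03 without it, an interaction of 1.02 (SE 0.09, adjusted p = 4.58e-05). Tlr7 had 0.92 (adjusted p = 2.55e-04), Tlr8 0.89 (adjusted p = 4.23e-04), Tlr1 0.68 (adjusted p = 6.47e-04) and Tlr2 0.60 (adjusted p = 5.60e-04). Tlr2 fell short of 1.5-fold without control replicate 1 (0.53), PRDX1 replicate 2 (0.58), RANKL replicate 2 (0.56) or PRDX1 + RANKL replicate 1 (0.58). Tlr4 had 0.48 (adjusted p = 0.0106), under the fold threshold except without RANKL replicate 1 (0.60). Tlr5 had 0.54 (adjusted p = 0.0205), and passed without RANKL replicate 1 (0.62), without PRDX1 + RANKL replicate 2 (0.61), with an added 0.1 (1.003) and on recovered reads (1.12). In Tlr5 the PRDX1 effect was below 0 in both settings and closer to 0 with RANKL. Tlr3 (0.33), Tlr6 (0.36) and Tlr9 (0.39) had adjusted p-values from 0.0689 to 0.143. Tlr3 had 0.21 without control replicate 2, and Tlr9 0.22 without PRDX1 + RANKL replicate 2.

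Summed over the family, the share of endosomal receptors in the receptor transcripts was lower in the libraries with RANKL, which is given as a description. The 5 endosomal receptors together had 353 and 328 FPKM in the control, 343 and 361 FPKM with PRDX1 alone, 104 and 90.9 FPKM with RANKL alone and 196 and 193 FPKM with both. The 5 surface receptors had 101 and 92.5 FPKM in the control, 92.8 and 92.3 FPKM with PRDX1 alone, 80.4 and 75.1 FPKM with RANKL alone and 117 and 112 FPKM with both. Endosomal receptors thus made up 77.9% ± 0.163 (SD, n = 2) of the summed FPKM in the control, 79.2% ± 0.644 with PRDX1 alone, 55.6% ± 1.15 with RANKL alone and 62.9% ± 0.424 with both. The endosomal sum is carried by Tlr7, Tlr8 and Tlr13, which held 49.8% to 76.9% of the family in each library, and the surface sum with both treatments by Tlr2. By median log2 fold change, RANKL alone gave -1.66 for the endosomal and -0.51 for the surface receptors, beside 0.10 over all genes tested. PRDX1 under RANKL gave 0.85 and 0.36, beside -0.06 over all genes. The difference between the classes was not tested, and within the endosomal class Tlr3 had the same signs as Tlr7, Tlr8 and Tlr13 in both of these comparisons with smaller values, whereas Tlr9 was above 0 in both.

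**Figure D4:**
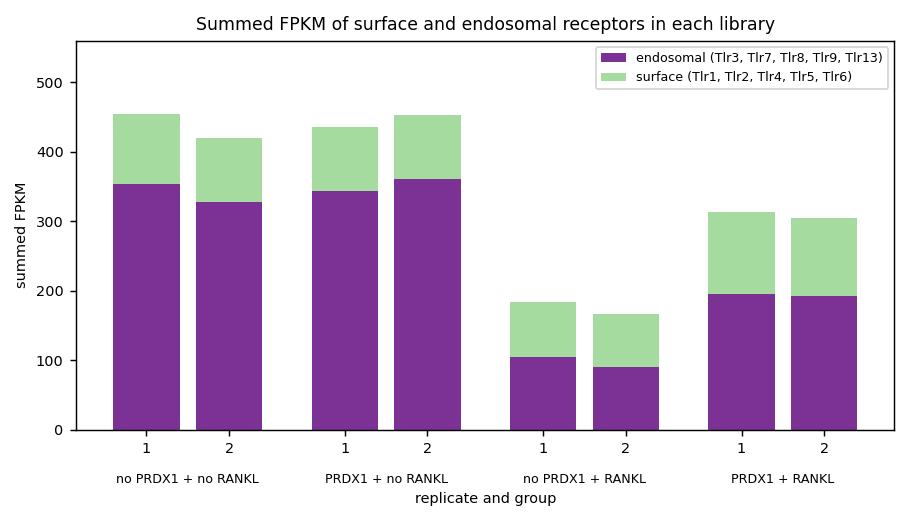
Stacked bars of the summed FPKM of the 5 endosomal (purple) and 5 surface (green) receptors in each of the 8 libraries, from 0. The endosomal part is 328 to 361 FPKM in the 4 libraries without RANKL, 90.9 and 104 FPKM with RANKL alone and 193 and 196 FPKM with both, while the surface part stays between 75.1 and 117 FPKM.

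The order of the receptors was not the same in the 4 groups. With RANKL alone Tlr2 (42.3 ± 1.59 FPKM, SD, n = 2) stood second after Tlr13 (47.2 ± 3.38 FPKM) and before Tlr7 (25.3 ± 3.12 FPKM), with no overlap of libraries, and Tlr8 (16.4 ± 2.27 FPKM) and Tlr4 (15.4 ± 1.79 FPKM) overlapped. With both treatments the order was Tlr13, Tlr2, Tlr7, Tlr8 and Tlr4, each apart from the next, and Tlr3 and Tlr6 overlapped. With PRDX1 alone the first 6 places were as in the control, Tlr3 (11.3 ± 0.0481 FPKM) stood above Tlr6 (9.69 ± 0.146 FPKM), and Tlr5 was last, below Tlr9.

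Endosomal receptors need partners to reach their compartment and to be cut into their active form, so the other genes of the pathway were counted from fixed lists. Of 13 chaperones and processing enzymes tested, RANKL alone lowered 5, PRDX1 under RANKL raised 4 and PRDX1 alone raised 2, where 9.96%, 6.03% and 3.8% of all genes tested were called in these directions. The medians of their log2 fold changes were -0.42, 0.20 and 0.04. The cathepsins and legumain, proteases that trim these receptors and also degrade other proteins in lysosomes, had the largest changes. Ctsb, which encodes cathepsin B, had 1611 ± 29.1 FPKM in the control, 2303 ± 18.02 with PRDX1 alone, 479 ± 23.6 with RANKL alone and 1247 ± 13.9 with both (SD, n = 2). Lgmn, which encodes legumain, fell from 738 ± 33.3 to 235 ± 4.53 FPKM with RANKL alone and had 400.4 ± 1.14 FPKM with both. Ctsl, which encodes cathepsin L, rose from 550.3 ± 10.9 to 1500 ± 40.7 FPKM with PRDX1 alone (log2 fold change 1.45) and was also higher with both treatments than with RANKL alone, at 1130 ± 29.6 against 446 ± 29.6 FPKM.

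Of 9 co-receptors and accessory proteins 7 were tested, and RANKL alone lowered 5 of them (median log2 fold change -1.05), PRDX1 under RANKL raised 4 (median 0.99), and PRDX1 alone raised 1 and lowered 1. The shares of all genes tested were 9.96% and 6.03% for the first pair of counts, and 3.8% higher and 1.99% lower with PRDX1 alone. Cd36, a scavenger receptor that assists TLR2 with TLR6, had 564 ± 5.74 FPKM in the control, 727 ± 8.44 with PRDX1 alone, 72.9 ± 9.62 with RANKL alone and 223 ± 8.55 with both. Ly86, the partner of the TLR4 homologue RP105, fell from 156 ± 1.26 to 25.8 ± 1.47 FPKM with RANKL alone and had 52.3 ± 2.16 FPKM with both. Clec7a, which encodes the β-glucan receptor dectin-1, rose from 21.5 ± 0.0636 to 49.1 ± 1.26 FPKM with PRDX1 alone. Among the 13 adaptors and kinases tested, of 15 listed and 14 in the table, RANKL alone raised 1 and lowered 1, and PRDX1 under RANKL raised 1, where 21.8% and 10.2% of all genes tested were called in either direction. No difference between the lists was tested. The raised gene with RANKL was Traf3, which encodes a ubiquitin ligase of TLR and TNF receptor signaling, from 6.502 ± 0.435 to 19.2 ± 0.506 FPKM, and the lowered one was Pik3ap1, an adaptor to PI3-kinase, from 108 ± 4.54 to 56.5 ± 0.0799 FPKM. Irak3, which encodes the inhibitory kinase IRAK-M, was the gene that PRDX1 raised under RANKL, from 8.23 ± 0.383 to 13.9 ± 0.419 FPKM.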

How the data were processed

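Primary mouse osteoclast precursor cells of 4 groups with 2 cultures each were sequenced with paired reads of 100 bases. Per the file headers and labels, the authors aligned reads to mm10 (HISAT2 is named in the submitters' processing notes), counted them on RefSeq exons on both strands with HOMER, kept 1 transcript per gene and deposited FPKM for 25124 genes in 8 columns. DESeq2 is also named in these notes, without its role. FPKM multiplied by transcript length and by a library total, with the units of FPKM, gave whole reads, within 0.1 read, for 100.0% of the genes checked. These were 2484 to 2623 genes in each library, and the total was the one found to bring low values closest to whole numbers. The recovered reads (24542578 to 41712973 per library on genes) were used for voom and for the reads quoted. Replicates differed by more than sampling noise (chi-square per degree of freedom 4.71 to 9.58).

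For the tests, log2(FPKM + 1) of the 11700 genes whose mean FPKM reached 0.5 entered a linear model with 1 mean per group and an empirical Bayes trend on intensity, and p-values were adjusted over all of them by Benjamini-Hochberg (limma 3.58.1, R 4.3.3). On this scale fold changes of low genes are understated. The steps were tested on simulated data with changes put into the groups with PRDX1, and only for the comparison of PRDX1 without RANKL. The RANKL comparisons and the interaction were not tested in this way. The members and gene lists were chosen with earlier results of these data known. Named genes were all 10 members, up to 3 genes with the largest called change in each pathway list, and the 2 genes most correlated with each member. Genes near members and the promoter motifs were chosen after the values were seen. Promoter sequences came from RefSeq (GRCm38.p6) and transcripts from GENCODE M21.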

Additional observations from a re-analysis of the deposited data

Results flagged for a closer look

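The effect of PRDX1 differed between cultures with and without RANKL, by the interaction in limma with Benjamini-Hochberg adjustment, for 7 of the 10 receptors at an adjusted p-value under 0.05, where 23.1% of all genes tested passed. Which receptors passed by this p-value depended on the setting. Tlr5 lost it, at adjusted p-values from 0.0539 to 0.0844, when either control library, PRDX1 replicate 1, RANKL replicate 2 or PRDX1 + RANKL replicate 1 was left out. Tlr6 gained it with the replicate block (0.0295), on recovered reads (0.0422) and without control replicate 2 (0.0470) or PRDX1 + RANKL replicate 2 (0.0492), and Tlr3 on recovered reads (0.0205) and without control replicate 1 (0.0424). The differences in log2 fold change were 1.02 for Tlr13, 0.92 for Tlr7, 0.89 for Tlr8, 0.68 for Tlr1, 0.60 for Tlr2, 0.54 for Tlr5 and 0.48 for Tlr4, where 5 passed 1.5-fold and Tlr5 and Tlr4 did not. The log2 fold change by PRDX1 was negative without RANKL and positive with it in Tlr1 (-0.22 and 0.46), Tlr4 (-0.13 and 0.36) and Tlr7 (-0.07 and 0.85). The same held for Tlr6 (-0.15 and 0.21) and Tlr9 (-0.10 and 0.29), which were not among the 7. In the absence of RANKL none of these receptors was called, and only Tlr1 had an adjusted p-value under 0.05. The share of all genes tested with such a change of sign is not given. Groups of 2 libraries were too small for a test of single outlying libraries.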

How the results depend on the processing

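All counts of receptors called stayed within 1.5 times the values given under the alternatives run, which were another added value (0.1), no filter, a mean FPKM of at least 1, quantile normalization, upper quartile scaling, a fit of only the groups compared, voom on recovered reads, the replicate block and leaving out each library. The single calls at 1.5-fold that changed are given beside the results, and all were of Tlr2, Tlr3, Tlr4, Tlr5, Tlr6 or Tlr9. Signs turned only for values close to 0 that were not called. For Tlr2 by RANKL without PRDX1 (0.03) quantile normalization gave a log2 fold change of -0.0563, scaling to the upper quartile one of -0.0384, and leaving out each library in turn gave -0.0383 to 0.0926. For Tlr5 in this comparison (0.07) it ranged from -0.0037 to 0.1515, and for Tlr13 by PRDX1 without RANKL (0.03) from -0.0553 to 0.1081, over the libraries left out. A group left with 1 library was assumed to vary like the others. The cause of these changes was not tested. The correlations of deviations between libraries of the same replicate number were 0.008 to 0.096 between groups, so the numbers were not taken as pairs. The file header names the libraries by other numbers than the columns, so that these may not be the original replicate numbers, which limits this check and the block. Here, with the replicate block the receptors called were 1 by PRDX1 without RANKL, 4 by PRDX1 with RANKL, 5 by RANKL without PRDX1, 6 by RANKL with PRDX1 and 5 for the interaction, as without it. The fit had 4 residual degrees of freedom, and Tlr5 and Tlr9 rested on 65 to 487 reads per library.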

Other observations

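The receptors whose transcripts fell most with RANKL all lie on the X chromosome of mm10. Tlr8 (NM_001313761) runs from 167241123 to 167264329 and Tlr7 (NM_133211) from 167304926 to 167330571, both on the minus strand and 40596 bases apart, whereas Tlr13 (NM_205820) lies far from them, from 106143275 to 106160493 on the plus strand. Of 376 X chromosome genes tested, RANKL alone lowered 12.2%, against 9.88% of those on other chromosomes, and their median log2 fold change was 0.08 against 0.10. Of the other genes tested within 200 kb of Tlr7 and Tlr8, Tmsb4x, which encodes thymosin β4, fell with RANKL alone (log2 fold change -1.11), with 9674 FPKM in the control and 4491 FPKM after, and Prps2 had a log2 fold change of -0.15. Near Tlr13, the copper transporter gene Atp7a fell (-0.85), and Pgk1 (-0.06), Magt1 (0.05), Taf9b (0.23) and Cox7b (0.55) were not called. By PRDX1 under RANKL Atp7a was raised (0.71), and Tmsb4x had 0.13 and was not called.

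Tlr1 (NM_030682, from 64924680 to 64932699) and Tlr6 (NM_001359180, from 64953106 to 64960048) are neighbours on chromosome 5, both on the minus strand and 20406 bases apart. Of the other genes tested within 200 kb of them, Klf3 (-0.88) and Fam114a1 (-0.80) were lowered by RANKL alone, and Klhl5 (0.02) and Tmem156 (-0.30) were not called. The remaining members lie on other chromosomes. Tlr2 (NM_011905) lies on chromosome 3 from 83836272 to 83841608, minus strand, Tlr4 (NM_021297) on chromosome 4 from 66827551 to 66846581, plus strand, Tlr5 (NM_016928) on chromosome 1 from 182954788 to 182976044, plus strand, Tlr3 (NM_001357316) on chromosome 8 from 45395665 to 45410380, minus strand, and Tlr9 (NM_031178) on chromosome 9 from 106222598 to 106226876, plus strand. No other gene in the table overlapped a member. Within 200 kb, RANKL alone raised Tmem131l near Tlr2 (0.63), Cyp4v3 near Tlr3 (0.64) and Twf2 near Tlr9 (0.68). It lowered Dusp7 near Tlr9 (-0.60), and the other genes tested near Tlr2, Tlr3, Tlr5 and Tlr9 were not called.

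The genes most like each receptor over the 8 libraries were found by Pearson's r of log2(FPKM + 1), with the members themselves left out of the search. The libraries form 4 groups, so r mostly reflects the group means, and it is given as a description. Nearest to Tlr13 were Plek and C1qa (both 0.998), to Tlr7 Rab7b (0.999), a small GTPase of endosomes, and Plek (0.998), and to Tlr8 March1 and Ugp2 (both 0.997). Between themselves Tlr7 and Tlr13 had 0.996, Tlr8 and Tlr13 0.993, and Tlr7 and Tlr8 0.987. Surface receptors were close to these values too, with 0.959 for Tlr4, 0.943 for Tlr1 and 0.916 for Tlr6 against Tlr7, and Tlr3 had 0.867, whereas Tlr9 had -0.70, Tlr5 -0.485 and Tlr2 -0.105. C1qa, which encodes a chain of complement C1q, had a mean of 480 FPKM in the control, 495 with PRDX1 alone, 47.7 with RANKL alone and 161 with both. Tlr4 was nearest to Phf1 (0.992) and Atp8b4 (0.986), Tlr1 to H2-T-ps (0.994) and Rassf4 (0.993), Tlr6 to Ormdl3 (0.995) and Runx3 (0.982), and Tlr3 to Txlnb (0.989) and Gm4951 (0.985). Tlr2 was nearest to Tspo (0.983) and Serpinb2 (0.981), and Tlr9 to Cdk13 and Angptl4 (both 0.979). Tlr5 was nearest to genes of cell division, Kif23 (0.996), a kinesin of cytokinesis, and Ccna2 (0.995), which encodes cyclin A2. Kif23 had a mean of 47.8 FPKM in the control, 26.6 with PRDX1 alone, 49.5 with RANKL alone and 38.9 with both.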
